A study of Mus musculus with 25 samples.

Results

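The cytochrome P450 genes are described here in mouse liver that lacks Mcl-1 in hepatocytes, in the livers of wild-type and hemizygous littermates, and in the liver tumors of the knockout animals. Members were all genes on the array whose symbol is Cyp followed by a digit, apart from 9 genes of bile acid, fatty acid and sterol metabolism or of central-vein hepatocytes (Cyp7a1, Cyp8b1, Cyp27a1, Cyp7b1, Cyp4a10, Cyp4a14, Cyp2e1, Cyp1a2 and Cyp51), and a gene was kept if its probe was well above background on 3 or more of the 25 arrays. Of 74 candidates on the array, 9 were left out by name and 1 was too dim, which left 64 members among 15552 named genes that passed the same detection limit. The dimmest gene kept, Cyp2ab1, was well above background on 6 arrays, and the gene just outside, Cyp11a1, on 1 array, a knockout at 2 months. Members were chosen by their name and by signal above background and, where a gene had several probes, the mean signal, so these levels are a description.

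The animals were untreated, and RNA came from homogenates of whole liver. At 2 months there were 2 wild-type, 3 Mcl-1 hemizygous and 3 Mcl-1 knockout livers, and at 12 months 3 wild-type livers. Knockout animals also gave a tumor, labelled hepatocellular carcinoma, and the corresponding non-tumor liver, from 3 animals at 8 months and 4 animals at 12 months. The deletion is hepatocyte-specific according to the series' design, while the Cre driver, the deleted stretch and the sex of the animals are not given in the sources used here, and neither is any treatment of the controls with the driver alone. Mcl-1 is an anti-apoptotic protein of the BCL-2 family.

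P450 enzymes are haem proteins that insert an oxygen atom from molecular oxygen into lipophilic substrates, and those of the endoplasmic reticulum take their electrons from the reductase Por. Families 1 to 3 handle mainly drugs and other foreign compounds, family 4 hydroxylates fatty acids and eicosanoids, and further families make or break down steroids, retinoids, vitamin D and cholesterol. In hepatocytes their genes respond to the receptors CAR (Nr1i3), PXR (Nr1i2), AhR and PPAR-alpha, fall in inflammation, and in mice many differ between the sexes through the pattern of growth hormone release.

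The stretches before the start sites of 4 members are shown because most Cyp3a genes below lay on the same side of the controls, because Cyp2c55 was the member called in a comparison, and because Cyp2b9 stood furthest below on arrays with a Y-linked mark. The 250 bases before the start come from RefSeq promoters of GRCm38.p6, which held 58 promoters of 50 of the 64 members among 32851 in all. Capitals mark CAAAGTCCA, a core of sites bound by the hepatocyte factor HNF4, in Cyp3a11 and the 9 bases nearest to it in Cyp3a44, TATAAA in Cyp2c55, and AGGTCA, a core of nuclear receptor sites, in Cyp2b9. All are given 5′ to 3′ on the strand of the gene. Cyp3a11 lies at chr5:145879855-145880104 on the minus strand, Cyp3a44 at chr5:145805875-145806124 on the minus strand, Cyp2c55 at chr19:39006769-39007018 on the plus strand and Cyp2b9 at chr7:26173159-26173408 on the plus strand.
Cyp3a11: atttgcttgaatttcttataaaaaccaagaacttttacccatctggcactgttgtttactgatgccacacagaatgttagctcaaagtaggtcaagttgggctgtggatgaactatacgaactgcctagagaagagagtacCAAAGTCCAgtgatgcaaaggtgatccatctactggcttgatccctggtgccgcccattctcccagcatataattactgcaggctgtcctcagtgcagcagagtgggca
Cyp3a44: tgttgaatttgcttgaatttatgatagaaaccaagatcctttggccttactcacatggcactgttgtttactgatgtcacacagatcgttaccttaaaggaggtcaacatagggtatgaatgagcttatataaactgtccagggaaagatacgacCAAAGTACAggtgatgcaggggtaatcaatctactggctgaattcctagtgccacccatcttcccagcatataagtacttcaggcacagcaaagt
Cyp2c55: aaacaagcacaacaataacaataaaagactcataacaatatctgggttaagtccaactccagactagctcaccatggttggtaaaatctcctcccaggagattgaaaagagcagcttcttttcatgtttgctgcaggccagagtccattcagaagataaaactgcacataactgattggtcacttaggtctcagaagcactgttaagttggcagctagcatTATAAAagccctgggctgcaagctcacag
Cyp2b9: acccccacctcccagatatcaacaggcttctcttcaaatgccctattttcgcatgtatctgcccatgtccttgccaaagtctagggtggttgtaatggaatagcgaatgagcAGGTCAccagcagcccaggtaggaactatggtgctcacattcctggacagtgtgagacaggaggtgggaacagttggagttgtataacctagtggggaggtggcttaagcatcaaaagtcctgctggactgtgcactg

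The Cyp3a stretches were close relatives. Identity was 95.9% between Cyp3a16 and Cyp3a44, 94.4% between Cyp3a41a and Cyp3a44, 93.9% between Cyp3a16 and Cyp3a41a, and 83.7% between Cyp3a11 and Cyp3a16. The stretches of Cyp2b9 and Cyp2b13 were 99.2% identical, and those of Cyp2a4 and Cyp2a5 98.4% identical. A level given for a gene of these pairs, or for Cyp3a16, Cyp3a41a or Cyp3a44, is uncertain where a probe can bind the transcripts of another. Searched on both strands, CAAAGTCCA stood in 5 of the 58 P450 promoters, or 8.62%, those of Cyp2c40, Cyp2c70, Cyp3a11, Cyp3a16 and Cyp3a41a, against 0.384% of all promoters. Cyp3a44 carried CAAAGTACA at bases -95 to -87 before its start, which differs from the core by C7A, counted from 1 at the first base of the core. AGGTCA stood in 24.1% of the P450 promoters and 14% of all promoters, and TATAAA in 34.5% and 12.4%. GCGTG, the core of sites of the AhR, stood in 22.4% and 28.2%, and TTATGTAA, a site of the clock output factors Dbp, Tef and Hlf, in 0 of 58 and 0.819%. None of these words contains another, and a match describes the letters in this window.

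**Figure D1:**
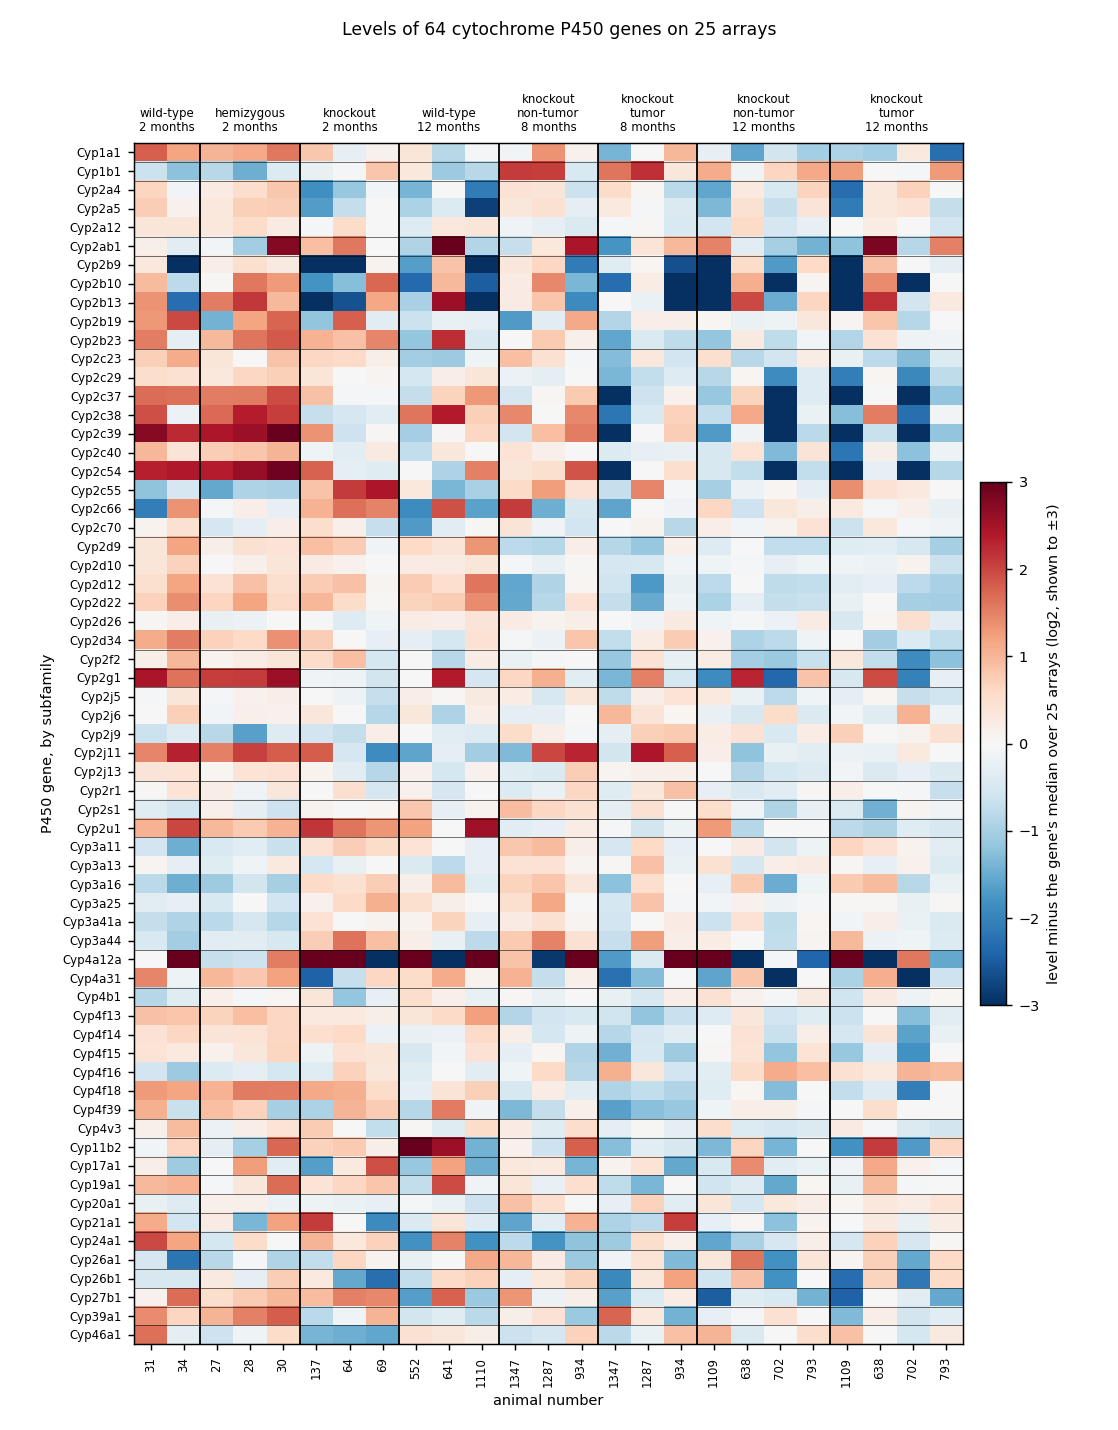
Level of each of the 64 P450 genes (one line per gene, ordered by subfamily) on each of the 25 arrays (columns, by group), as the log2 difference from that gene's median over the 25 arrays, with colours limited to 3 in either direction. The Cyp3a genes other than Cyp3a13, with Cyp3a44 by its brighter probe, stand higher in the knockout livers of 2 months than in the others of that age. The Cyp2b genes and Cyp4a12a vary between animals within groups.

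A level below is the log2 signal of a gene's probe minus the 75th percentile of its array. Levels of different genes are not compared, since probes differ in brightness. Differences between groups were tested with limma on all genes at once, with each unnamed probe counted as a gene, and called at a Benjamini-Hochberg adjusted p under 0.05. Between 60.3% and 84.9% of the probes of an array were well above background, with the highest share in wild-type animal 641 of 12 months, and no spot was saturated. Of the members, 55 were well above background on all 25 arrays, and the others on 6 (Cyp2ab1), 7 (Cyp11b2), 8 (Cyp24a1), 12 (Cyp19a1), 15 (Cyp2b23), 21 (Cyp2j11), 22 (Cyp21a1), 23 (Cyp1a1) and 24 arrays (Cyp2c66). The arrays lay on 8 slides: at 2 months the wild-type livers were on slide 1, the hemizygous livers on slides 1 and 2 and the knockout livers on slides 2 and 3. The hepatocyte markers Alb, Apoa1, Ttr and Hnf4a were present throughout, with Alb between 8.96 and 10.38 and Hnf4a between 3.16 and 4.28 over the 25 arrays. The labels name separate animals, so p-values between groups measure the spread between animals within groups, pooled over the groups. Those of tumor against non-tumor liver measure the spread of the differences within animals. The small number of arrays limits the precision of both.

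Mcl1 itself followed the labels. Its level was 4.02 and 4.49 in the wild-type livers of 2 months, 3.23, 3.20 and 3.58 in the hemizygous livers and 1.84, 1.52 and 2.09 in the knockout livers, and 4.48, 3.87 and 4.47 in the wild-type livers of 12 months. Knockout tumors and non-tumor livers lay between 1.46 and 3.06, so no knockout array reached any wild-type or hemizygous array. Against wild-type at 2 months Mcl1 fell by 2.44 (SE 0.37, adjusted p = 0.0456 in limma). Whether the probe lies in the deleted stretch is not given in the sources used here.

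The levels of some sex-biased P450 genes, but not of others, separated arrays with and without the Y-linked gene Ddx3y. Ddx3y was well above background on 11 arrays, with levels from 0.77 to 2.68, and at -6.40 or lower on the other 14. At 2 months it was seen in 2 of the 3 knockout livers, in 1 of the 2 wild-type livers and in 0 of the 3 hemizygous livers, further in 2 of 3 wild-type livers at 12 months, in 1 of the 3 knockout animals of 8 months and in 2 of the 4 of 12 months. The sex is not labelled, and the groups thus differ in this mark, above all the hemizygous and knockout livers of 2 months. Xist, the transcript that silences an X chromosome in females, lay between -1.98 and 0.51 on the arrays without Ddx3y and at -4.98 or lower on those with it.

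Over the 18 arrays without tumor tissue, 4 members had ranges that did not overlap between arrays with and without Ddx3y, and all 4 were lower with it. The share over all genes was not computed for this split, so this count and those by Ddx3y below only describe the members. Cyp2b9, a female-type steroid hydroxylase of mouse liver, had its lowest, median and highest level at 0.84, 2.04 and 4.28 with Ddx3y and 6.05, 6.34 and 6.79 without. Cyp2b13, its near copy, had -0.99, 1.18 and 2.66 with Ddx3y and 3.86, 4.87 and 6.20 without. Cyp2b10, the classical target of CAR, had -2.86, -0.42 and 0.86 and 1.67, 2.68 and 3.36. These 3 genes of the Cyp2b cluster thus split the animals into those with and those without the Y-linked mark in every non-tumor group that held both. Cyp2a4, a female-predominant testosterone hydroxylase, was the fourth, with 5.45, 6.28 and 7.46 and 7.47, 7.96 and 8.37 without overlap.

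In the opposite direction, Cyp4a12a, an androgen-dependent fatty acid hydroxylase, reached 1.75, 5.63 and 6.96 on arrays with Ddx3y and -3.71, 0.27 and 3.33 on arrays without, and its ranges overlapped through a single animal, knockout 702 of 12 months. That animal carried Ddx3y, yet its non-tumor liver had Cyp4a12a at 1.75 and Cyp2b9 at 4.24, and its tumor 3.39 and 5.93. Over all 25 arrays Cyp2b9 therefore overlapped between the sets, while Cyp2b13 did not. In all, 11 members had a median lower by more than 1 on arrays with Ddx3y and 2 a median higher by more than 1, Cyp4a12a and the orphan P450 Cyp2u1 (a difference of medians of 1.04). Other members counted as female-biased showed little of this: the difference of medians was -0.30 for Cyp3a16, -0.19 for Cyp3a41a, 0.31 for Cyp3a44, -0.65 for Cyp2c40 and -0.47 for Cyp2c39, all with overlapping ranges. The male-type Cyp2d9 differed by 0.59, also with overlap. Each of these values rests on the gene's brightest probe. The dimmer probe of Cyp3a44 correlated with the brighter one at -0.13 over the 25 arrays.

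**Figure D2:**
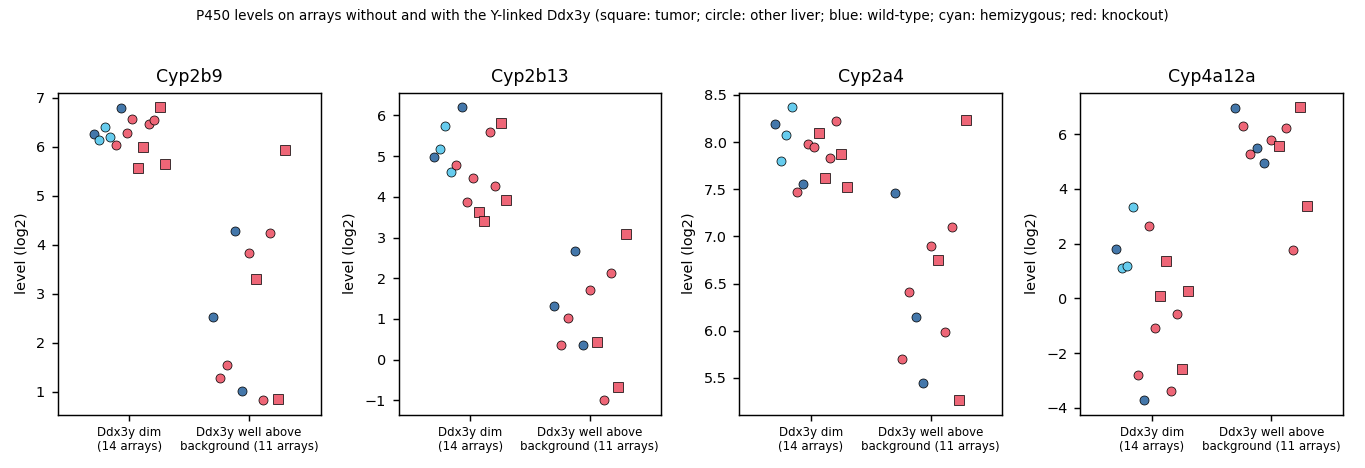
Levels (log2, relative to the array's 75th percentile) of Cyp2b9, Cyp2b13, Cyp2a4 and Cyp4a12a on the 14 arrays without and the 11 arrays with Ddx3y well above background; circles are liver and squares tumors. Cyp2b9 and Cyp2b13 are high on arrays without Ddx3y and Cyp4a12a is low there, apart from animal 702, whose tumor (5.93) lies among the arrays without Ddx3y for Cyp2b9 and whose non-tumor liver (1.75) lies among them for Cyp4a12a.

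The first comparison asks what the loss of Mcl-1 in hepatocytes goes with at 2 months, against wild-type and against hemizygous littermates. In mean level, 5 of the 6 Cyp3a genes and Cyp2c55 were higher in the knockout livers, with Cyp3a44 counted by its brighter probe. Most Cyp2a, Cyp2b and Cyp2c genes and the sterol hydroxylases Cyp46a1 and Cyp39a1 were lower. A single member passed the adjusted threshold: Cyp2c55, which rose against the hemizygous livers. Since the same 3 knockout arrays enter both comparisons, they do not support each other. Whole liver was measured, so fewer hepatocytes and less RNA per hepatocyte cannot be told apart.

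Cyp2c55, an arachidonic acid hydroxylase known as inducible by CAR and PXR activators, had levels of 1.11, 2.35 and 2.68 in the knockout livers, -0.96 and -0.25 in wild-type and -1.28, -0.68 and -0.73 in hemizygous livers. All 3 knockout livers lay above all 5 others of that age, and the animal with the lowest value was number 137. It rose by 2.94 against the hemizygous livers (SE 0.48, 7.69-fold, adjusted p = 0.0479 in limma). Against wild-type the difference was 2.65 (SE 0.54, 6.30-fold), which did not pass (adjusted p = 0.173). On slide 2, which held knockout 137 and 2 of the hemizygous livers, the difference was 2.09, and with slide as a block the adjusted p was 0.46. The call was also lost with Ddx3y as a covariate, where the difference was 2.97 and the adjusted p 0.0909. Leaving out 1 array in turn, the call held without knockout 137, wild-type 552, wild-type 641 or non-tumor 934, and it was lost without any of the other 14 arrays, with adjusted p-values from 0.0574 to 0.352.

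Against hemizygous livers, 1 of the 64 members, or 1.56%, was called higher and 0 lower, beside 0.0332% and 0.0185% of the 27099 genes tested, or 0.0517% in either direction. At an unadjusted p under 0.05, 6 members were higher (Cyp2c55 and 5 of the 6 Cyp3a genes) and 11 lower, beside 4.07% and 4.21% of all genes. Against wild-type 0 members were called, beside 0.0111% of genes called higher and 0.0148% lower, and at an unadjusted p under 0.05 the same 6 and Cyp4f16 were higher and 5 were lower, beside 4.49% and 4.31%, or 8.8% in either direction. In groups that did not overlap, 9 members were higher and 19 lower than wild-type, beside 17.5% and 19% of all genes, and 9 were higher and 13 lower than hemizygous, beside 16.1% and 9.34%. The median difference over the 64 members was -0.30 against wild-type (43 below 0) and -0.17 against hemizygous (40 below 0), beside -0.01 and 0.07 over all genes. Over the 55 members detected on every array it was -0.30 and -0.18. With slide as a block the medians turned to 0.08 and 0.06, beside 0.15 and 0.09 over all genes.

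In mean level, markers of macrophages and of stellate cells and matrix stood higher in the knockout livers, as did acute phase proteins. Of 14 macrophage markers 12 were above 0 against wild-type at 2 months, and their mean level was 1.73 to 2.03 in knockout, 0.72 to 0.98 in wild-type and 0.82 to 1.27 in hemizygous livers. Of 11 stellate cell and matrix markers, 10 were above 0 with a median of 1.44, and of 16 acute phase proteins 14 with a median of 0.41. Hepatocyte markers averaged 7.76 to 8.07 in the knockout, 7.91 to 8.06 in the wild-type and 7.74 to 7.90 in the hemizygous livers. Mean levels of endothelial markers were -0.06 to 0.95 in knockout, 0.41 to 0.42 in wild-type and 0.62 to 1.04 in hemizygous livers. Those of T and NK cell markers were -3.76 to -3.25 in knockout, -3.93 to -3.36 in wild-type and -4.24 to -3.81 in hemizygous livers. They overlapped between knockout and wild-type and were higher in knockout than in hemizygous livers. Those of cholangiocyte and progenitor markers were -2.14 to -1.92, -2.94 to -2.47 and -2.32 to -1.99 in the same order. They were higher in knockout than in wild-type and overlapped between knockout and hemizygous livers. The part of these markers in the P450 differences was not tested.

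Cyp3a enzymes are the main oxidases of drugs and steroids in liver, and their genes are the classical targets of PXR. Of the 6 members, 5 were higher in knockout than in every wild-type and hemizygous liver of 2 months, with Cyp3a44 by its brighter probe. The share of all genes above both control groups at once was not computed, so this count only describes the members. The median over the 6 was 1.3 against wild-type and 1.0 against hemizygous. It was 1.13 and 0.94 with slide as a block and 1.36 and 1.25 with Ddx3y as a covariate, and between 1.31 and 1.32, and 0.95 and 0.96, under 3 other scalings of the arrays. The exception was Cyp3a13, which is also expressed in intestine, with 4.43, 4.75 and 4.97 in the knockout, 5.04 and 4.69 in the wild-type and 4.60, 4.84 and 5.26 in the hemizygous livers, where the groups overlapped.

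Cyp3a11, the most studied PXR target of mouse liver, was at 8.74, 9.05 and 8.86 in knockout, 7.73 and 6.83 in wild-type and 7.84, 7.95 and 7.65 in hemizygous livers. The knockout values were tight and above all others, with wild-type animal 34 the lowest. The difference from wild-type was 1.6 (SE 0.34, 3.04-fold, adjusted p = 0.197 in limma) and from hemizygous 1.07 (SE 0.30, adjusted p = 0.316). With a trended, robust prior the first passed, with an adjusted p of 0.0424.

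Cyp3a44, a female-type gene of the cluster, was at 7.96, 8.87 and 8.13 in knockout, 6.79 and 6.19 in wild-type and 6.92, 6.91 and 6.75 in hemizygous livers. The groups did not overlap, and the difference was 1.83 from wild-type (SE 0.41, adjusted p = 0.211 in limma) and 1.46 from hemizygous. Its second probe, well above background on 23 arrays, gave -0.13 and -2.37 for the same differences, so the direction for Cyp3a44 rests on the brighter probe. Averaging both probes turned the difference from hemizygous to -0.46.

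Cyp3a16, a fetal and female-type gene, was at 6.64, 6.51 and 6.81 in knockout, 5.24 and 4.59 in wild-type and 4.99, 5.52 and 5.07 in hemizygous livers, a difference of 1.74 from wild-type (SE 0.52, adjusted p = 0.345 in limma). Cyp3a41a, the main female-type member, was at 8.99, 8.58 and 8.66, 7.86 and 7.65 and 7.75, 8.05 and 7.71 in the same order of groups, a difference of 0.99. Cyp3a25 was at 6.10, 6.53 and 7.04, 5.63 and 5.72 and 5.52, 5.97 and 5.40, a difference of 0.88. None of these 3 passed the adjusted threshold, and in none did the knockout livers overlap the others. The female-type genes Cyp3a16, Cyp3a41a and, by its brighter probe only, Cyp3a44 were higher in knockout than in hemizygous livers. Ddx3y was seen in 2 of the 3 knockout livers and in no hemizygous liver. The Cyp3a medians with Ddx3y as a covariate are given above, and beyond that fit its part in these differences was not tested.

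**Figure D3:**
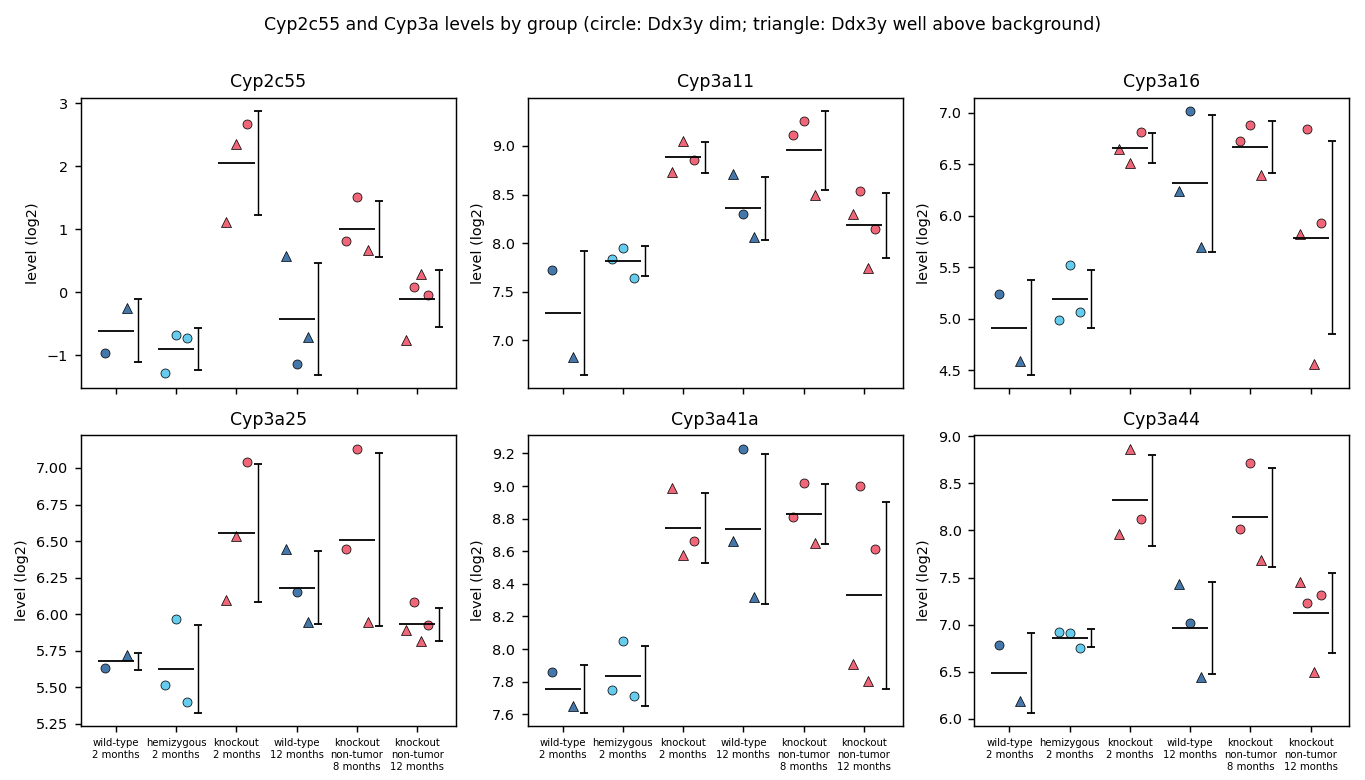
Levels (log2, relative to the array's 75th percentile) of Cyp2c55 and 5 Cyp3a genes in the 6 groups of liver without tumor; each point is an animal (triangles with, circles without Ddx3y), lines are means and bars SD. In all 6 panels, with Cyp3a44 by its brighter probe, the 3 knockout livers of 2 months lie above the 5 wild-type and hemizygous livers of that age.

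Most Cyp2c genes lay on the opposite side from Cyp2c55. These enzymes epoxidise arachidonic acid and oxidise drugs, and 8 of the 10 members were lower than wild-type, with a median of -0.61, and 6 of 10 lower than hemizygous, with a median of -0.66. With slide as a block these medians were -0.04 and -0.39. Cyp2c39, a retinoic acid hydroxylase, was at 5.06, 3.10 and 3.75 in knockout, 6.45 and 5.94 in wild-type and 6.14, 6.29 and 6.76 in hemizygous livers. The knockout livers lay below all others, but spread widely, and the difference from wild-type was -2.23 (SE 1.03, adjusted p = 0.563 in limma). Cyp2c54 was at 3.68, 1.64 and 1.54, 4.24 and 4.31 and 4.27, 4.52 and 4.81, a difference of -1.99 (SE 0.92). Cyp2c37, named after its values were seen, was at 6.28, 5.37 and 5.39, 7.08 and 7.06 and 6.94, 6.97 and 7.37. In these 3 genes animal 137 was the knockout liver nearest to the controls, as it was for Cyp2c55. On slide 2 the difference of Cyp2c39 between animal 137 and 2 hemizygous livers was -1.16, while Cyp2c29, the main phenobarbital-inducible member, differed from wild-type by -0.34 and Cyp2c70, which makes muricholic acids in mice, by -0.28.

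Of the Cyp2a genes all 3 and of the Cyp2b genes 4 of 5 were lower than wild-type, with medians of -1.23 and -1.10, and against hemizygous the medians were -1.38 and -1.41. With Ddx3y as a covariate they were smaller, -1.04 and -0.45 against wild-type and -0.63 and -0.51 against hemizygous. With slide as a block they were larger, -1.69 and -1.41 against wild-type and -2.19 and -2.60 against hemizygous. Cyp2a5, the coumarin hydroxylase, was at 6.37, 7.34 and 8.05 in knockout, 8.79 and 8.18 in wild-type and 8.36, 8.76 and 8.79 in hemizygous livers, with no overlap. Cyp2a4 was at 5.70, 6.41 and 7.47, 8.19 and 7.46 and 7.79, 8.07 and 8.37. In Cyp2b10 the order followed Ddx3y: the knockout liver without it, animal 69, had 3.36 and those with it -0.16 and 0.36, beside 2.60 and 0.86 in wild-type and 1.67, 3.21 and 2.92 in hemizygous livers. Cyp2b9 gave 6.05 in animal 69 and 1.29 and 1.55 in the knockout livers with Ddx3y, beside 6.26 in the wild-type liver without and 2.54 in the one with Ddx3y. For both Cyp2b genes the knockout liver without Ddx3y lay among the hemizygous livers or close to them, and the knockout livers with Ddx3y far below. No hemizygous liver carried Ddx3y, so genotype and this mark cannot be told apart there. With Ddx3y as a covariate, limma called 0 members in either comparison, beside 6 of 27099 genes against wild-type and 0 against hemizygous.

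Among members with endogenous substrates, Cyp46a1, the cholesterol 24-hydroxylase best known from brain, was at -3.91, -4.0 and -4.09 in the knockout livers, -0.87 and -2.83 in wild-type and -3.14, -2.65 and -1.97 in hemizygous livers. The knockout values were the closest together and below all others, and the difference from wild-type was -2.15 (SE 0.57, adjusted p = 0.285 in limma). Cyp39a1, the oxysterol 7-alpha-hydroxylase, was at 1.6, 2.29 and 3.44, 3.83 and 3.07 and 3.44, 3.92 and 4.24 in the same order, a difference of -1.42 from hemizygous (SE 0.46, adjusted p = 0.414). Here the highest knockout liver, animal 69, reached the lowest hemizygous liver and lay above a wild-type liver. Cyp1a1, the classical target of AhR, was at -3.46, -4.51 and -4.14, -2.49 and -3.10 and -3.24, -3.14 and -2.69, a difference from wild-type of -1.24. The knockout livers lay below the others without overlap.

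Hemizygous and wild-type livers of 2 months were compared in the same way. No member was called, beside 0% of the genes tested, and 0 members had an unadjusted p under 0.05 in either direction, beside 0.373% and 0.889% of all genes. Groups that did not overlap gave 4 members higher and 4 lower, beside 8.36% and 10.2%. The median difference was 0.02 over the members and -0.05 over all genes. The 2 groups also differ in Ddx3y, seen in 1 of 2 wild-type and 0 of 3 hemizygous livers.

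The second comparison sets the non-tumor liver of 4 knockout animals of 12 months against 3 wild-type livers of that age. The wild-type livers lay on slides 3 and 4 and the knockout livers on slides 7 and 8. Wild-type animals 552 and 1110 also had another scan day than the knockout livers. No slide held both groups, so slide and genotype cannot be told apart within these groups alone. The Cyp2d genes were lower, all 6 of them below 0 with a median of -0.83, and 5 of 6 with a median of -0.51 to -0.61 under other scalings of the arrays, and 4 of 6 Cyp3a genes were below 0 with a median of -0.21, which turned to between 0.12 and 0.13 under those scalings. No member was called, beside 0.00738% of all genes called higher and 0.0111% lower. At an unadjusted p under 0.05, 1 member was higher, Cyp3a13, and 6 were lower (Cyp2c38, Cyp2d9, Cyp2d10, Cyp2d12, Cyp2d22 and Cyp4f13), beside 8.45% and 9.02% of all genes. Without overlap, Cyp2b19 and Cyp39a1 were higher and 5 members lower (4 Cyp2d genes and Cyp4f13), beside 5.33% and 4.89%. The median over the 64 members was -0.28 with 46 below 0, beside -0.09 over all genes. Under 3 other scalings it was -0.13 to -0.15, beside 0.01 to 0.05 over all genes. Hepatocyte markers averaged 7.21 to 7.53 in the knockout and 7.52 to 8.07 in the wild-type livers, and macrophage markers 1.68 to 2.38 and -0.13 to 1.5, and their part in the P450 values was not tested.

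Cyp2d enzymes oxidise amine drugs and, in male mice, testosterone. Cyp2d22, often taken as the mouse counterpart of the main human CYP2D enzyme, was at 3.26, 3.95, 3.49 and 3.54 in the knockout non-tumor livers and 4.89, 4.97 and 5.62 in wild-type livers. The highest knockout liver lay below the lowest wild-type liver, and the difference was -1.6 (SE 0.41, 3.03-fold lower, adjusted p = 0.110 in limma). Cyp2d12 was at 5.20, 5.99, 5.21 and 5.25 and 6.76, 6.49 and 7.58, a difference of -1.53 (SE 0.39, adjusted p = 0.110). Cyp2d9, the male-type testosterone 16-alpha-hydroxylase, was at 7.36, 7.76, 7.02 and 7.01 and 8.36, 8.16 and 9.09, a difference of -1.24 (SE 0.36, adjusted p = 0.128). In all 3 genes animal 638, which lacks Ddx3y, was the highest knockout liver.

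Without animal 638 the adjusted p passed for 5 members, Cyp2c38, Cyp2d9, Cyp2d12, Cyp2d22 and Cyp4f13, with values of -2.96, -1.40, -1.73, -1.73 and -1.16. The share of all genes called in that fit is not given here, so this count is not set against it. With a trended, robust prior Cyp2d12 and Cyp2d22 passed, beside 288 called of 27099 genes. Among genes well above background on every array Cyp4f13 passed as well, beside 445 called of 16320. Both groups held animals with and without Ddx3y, 2 of 4 knockout and 2 of 3 wild-type. At 2 months Cyp2d22 was at 5.20, 4.76 and 4.26 in knockout, 4.90 and 5.61 in wild-type and 4.85, 5.39 and 4.78 in hemizygous livers, with overlap, and all 6 Cyp2d genes were below 0 against wild-type with a median of -0.35, which was 0.02 with slide as a block. At 8 months the non-tumor livers had 2.69, 3.36 and 4.66 for Cyp2d22 and 4.42, 5.08 and 6.05 for Cyp2d12, with animal 934 the highest. The difference between the knockout effects of 12 and 2 months was -1.28 for Cyp2d12 (SE 0.61, adjusted p = 0.521 in limma).

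Cyp4f13, a leukotriene and fatty acid hydroxylase, was at 2.25, 2.98, 2.05 and 2.27 in the knockout and 3.0, 3.21 and 3.86 in the wild-type livers of 12 months. The groups met but did not overlap, with animal 638 again the highest knockout, and the difference was -0.97 (SE 0.26, adjusted p = 0.118 in limma). Cyp2c38, a close relative of Cyp2c39, was at -2.23, -0.36, -4.75 and -1.70 and 0.11, 0.88 and -0.79, a difference of -2.33 (SE 0.81, adjusted p = 0.169), with animal 638 inside the wild-type range. Of the members that were higher, Cyp3a13 differed by 0.58 (SE 0.27), Cyp4f16 by 0.80, Cyp1b1, which also occurs in non-hepatocytes, by 1.22, and Cyp2c70 by 0.82, and none passed.

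**Figure D4:**
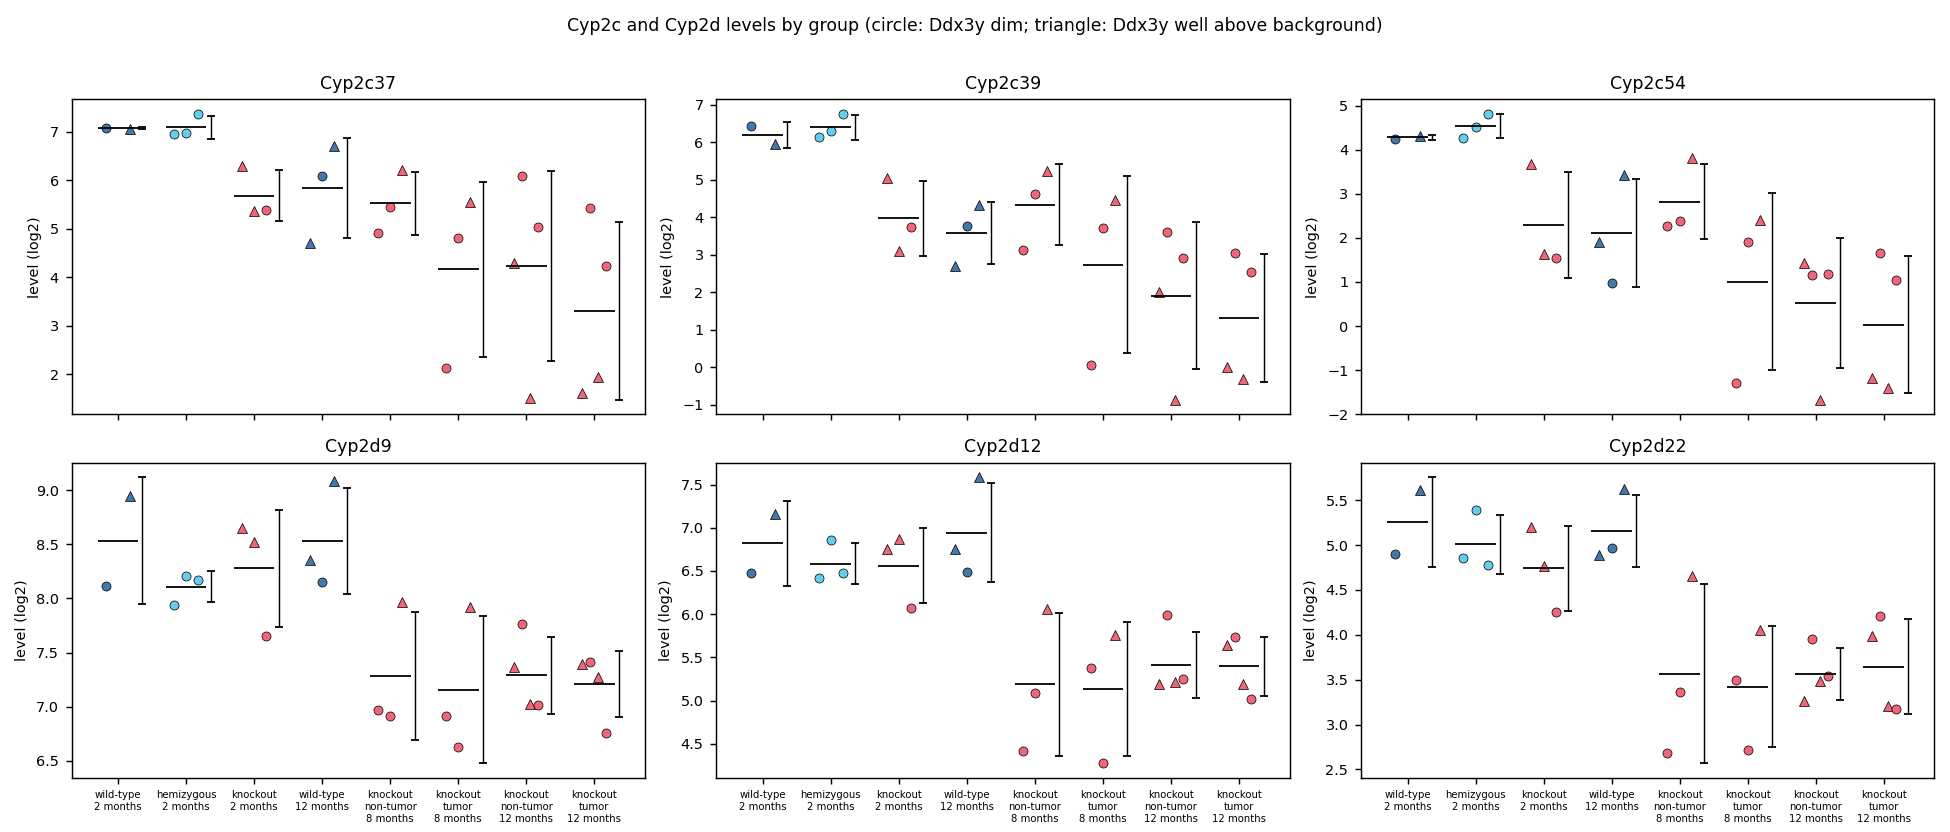
Levels (log2, relative to the array's 75th percentile) of 3 Cyp2c and 3 Cyp2d genes in all 8 groups; each point is an array (triangles with, circles without Ddx3y), lines are means and bars SD. The Cyp2c genes are highest in wild-type and hemizygous livers of 2 months and spread over several log2 units in older knockout liver and tumors, and Cyp2d12 and Cyp2d22 are lower in older knockout liver than in wild-type liver of 12 months.

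Cyp3a11 and Cyp2c55 were also set against wild-type at both ages. In non-tumor knockout liver of 12 months Cyp3a11 was at 8.30, 8.54, 7.74 and 8.15 and in wild-type liver at 8.71, 8.30 and 8.06, and Cyp2c55 was at -0.75, 0.08, 0.30 and -0.03 and 0.57, -1.13 and -0.71. Both pairs of groups overlapped. The knockout effect at 12 months minus that at 2 months was -1.78 for Cyp3a11 (SE 0.44, adjusted p = 0.415 in limma), -2.27 for Cyp3a16, -2.33 for Cyp2c55 and -1.67 for Cyp3a44, whose second probe ran the other way, with knockout effects of 1.28 at 12 and -0.13 at 2 months. At an unadjusted p under 0.05 this interaction was negative for 6 members (Cyp2c55 and 5 Cyp3a genes) and positive for 4 (Cyp2a4, Cyp2a5, Cyp39a1 and Cyp46a1), beside 4.96% and 4.71% of all genes, and 0 members passed the adjusted threshold, beside 0% of all genes.

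Age alone was compared in wild-type liver, 12 against 2 months. No member was called, beside 0.0258% of genes called higher and 0.0111% lower, or 0.0369% in either direction. Cyp3a11, Cyp3a16 and Cyp3a41a were higher and 10 members lower at an unadjusted p under 0.05, beside 4.83% and 5.86% of all genes, and the median over the members was -0.35, beside -0.03. Cyp2c23, which makes epoxides of arachidonic acid, was at 5.22, 5.17 and 6.13 at 12 and 6.98 and 7.36 at 2 months, without overlap, a difference of -1.66 (SE 0.44, adjusted p = 0.2 in limma). Cyp2d34 differed by -1.45, Cyp1a1 by -1.64 and Cyp39a1 by -1.61, and Cyp3a11 by 1.08 in the other direction. Of the 3 wild-type livers of 12 months, 2 came from another scan day than those of 2 months, and no slide held both ages of wild-type, so slide and age cannot be told apart within these groups alone.

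The wild-type livers of 12 months thus shared with the knockout livers of 2 months a higher Cyp3a11 and a lower Cyp2c39 than the wild-type livers of 2 months: Cyp2c39 was at 2.70, 3.76 and 4.33 in them. The 2 comparisons share the wild-type livers of 2 months. In knockout non-tumor liver, 12 against 8 months, 0 members were called beside 0% of all genes, and at an unadjusted p under 0.05 0 were higher and 8 lower, beside 1.03% and 4.23%. They included Cyp3a44, with 7.45, 7.23, 6.5 and 7.32 at 12 and 8.02, 8.72 and 7.69 at 8 months, and Cyp2c55, with 0.81, 1.51 and 0.68 at 8 months. Neither gene overlapped between the ages, as also held for Cyp1a1, Cyp2c54 and Cyp27b1, 5 lower members in all beside 4.46% of genes. The difference was -1.01 for Cyp3a44 (SE 0.34, adjusted p = 0.921 in limma), turned to 0.12 by averaging its probes, and -1.10 for Cyp2c55. Non-tumor livers of 8 months lay on slides 5 and 6 and those of 12 months on slides 7 and 8. Slide and age thus cannot be told apart here.

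Tumors were compared with the non-tumor liver of the same animal, with the animal as a block. In mean difference, 9 of the 10 Cyp2c genes were below 0 in tumors, with a median of -0.55, as were 5 of the 6 Cyp4f genes, with a median of -0.35. No member was called, beside 0% of the 24589 genes tested. At an unadjusted p under 0.05, Cyp24a1 and Cyp2j6 were higher and 8 members lower (Cyp2c23, Cyp2c29, Cyp2c37, Cyp2c39, Cyp2c40, Cyp4f14, Cyp4f15 and Cyp4f18), beside 2.38% and 1.66% of all genes. Cyp24a1 was dim, well above background on 2 tumors and 1 non-tumor liver of 12 months and on 0 arrays of 8 months. Its difference was 0.85, and 0.09 in the lowest of the alternatives. The median over the 64 members was -0.16, with 48 below 0, beside -0.01 over all genes. It was -0.05 to -0.08 under 3 other scalings of the arrays and -0.06, beside 0.03 over all genes, with slide as a block.

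Cyp4f15, a fatty acid omega-hydroxylase, was lower in the tumor of 7 of 7 animals, with a lowest, median and highest difference of -1.17, -0.65 and -0.16, and its mean difference was -0.68 (SE 0.16, adjusted p = 1 in limma). Cyp2j6 was higher in 7 of 7, with 0.06, 0.28 and 1.28, and a mean of 0.43 (SE 0.18). These were the only members that went the same way in every animal, beside 0.838% of all genes lower and 0.622% higher. Cyp4f18, which inactivates leukotriene B4, was lower in 6 of 7 animals, with -0.94, -0.43 and 0.01 and a mean of -0.50 (SE 0.15).

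Cyp2c37 was lower in 6 of 7 tumors, with -2.78, -0.67 and 0.42 and a mean of -1.12 (SE 0.39). The lowest differences came from animals 1347 and 1109, at -2.78 and -2.68, while in animal 702 the tumor was higher than a non-tumor liver that was itself at 1.51. Cyp2c39 showed the same animals at its ends, -3.08 in 1347 and 0.57 in 702. Pericentral genes outside the P450 family, 18 measured, were lower alongside: all 18 were below 0 in the tumors, with a median of -0.56, and the hepatocyte markers were below 0 in 14 of 15, with a median of -0.15. The part of either in the Cyp2c values was not tested.

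The 7 tumors differed in how many P450 genes they held at a lower level. In animal 1347, 50 of 64 members were lower with a median difference of -0.80, and 28 were lower by more than 1. In 934 it was 48 of 64, in 793 44, in 1287 37, in 1109 33, in 702 25 and in 638 24, where the median difference was 0.17. All genes followed the same animals in part, with 60.4% lower in 1347 and 39.5% in 638. The tumor of 1347 was also the single tumor that lay on another slide and scan day than its non-tumor liver, which cannot be told apart from the animal.

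The tumor difference was also compared between 12 and 8 months, where the smallest p-values were those of Cyp2b10 and Cyp2b23. Cyp2b10 was lower in the tumors of 8 months, by -2.53, -1.23 and -1.95, and differed by 0.38, 0.32, 0.17 and -0.08 at 12 months. The age groups did not overlap, and the difference between them was 2.10 (SE 0.37, adjusted p = 0.443 in limma). Cyp2b23, a dim member named after its values were seen, gave 1.49. Of the other Cyp2b genes, Cyp2b13 gave 1.13, Cyp2b9 0.90 and Cyp2b19 -0.14, all with overlap between the ages. At an unadjusted p under 0.05 this difference was positive for 7 members and negative for 0, beside 5.45% and 0.614% of all genes, and 0 members passed the adjusted threshold beside 0% of all genes.

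**Figure D5:**
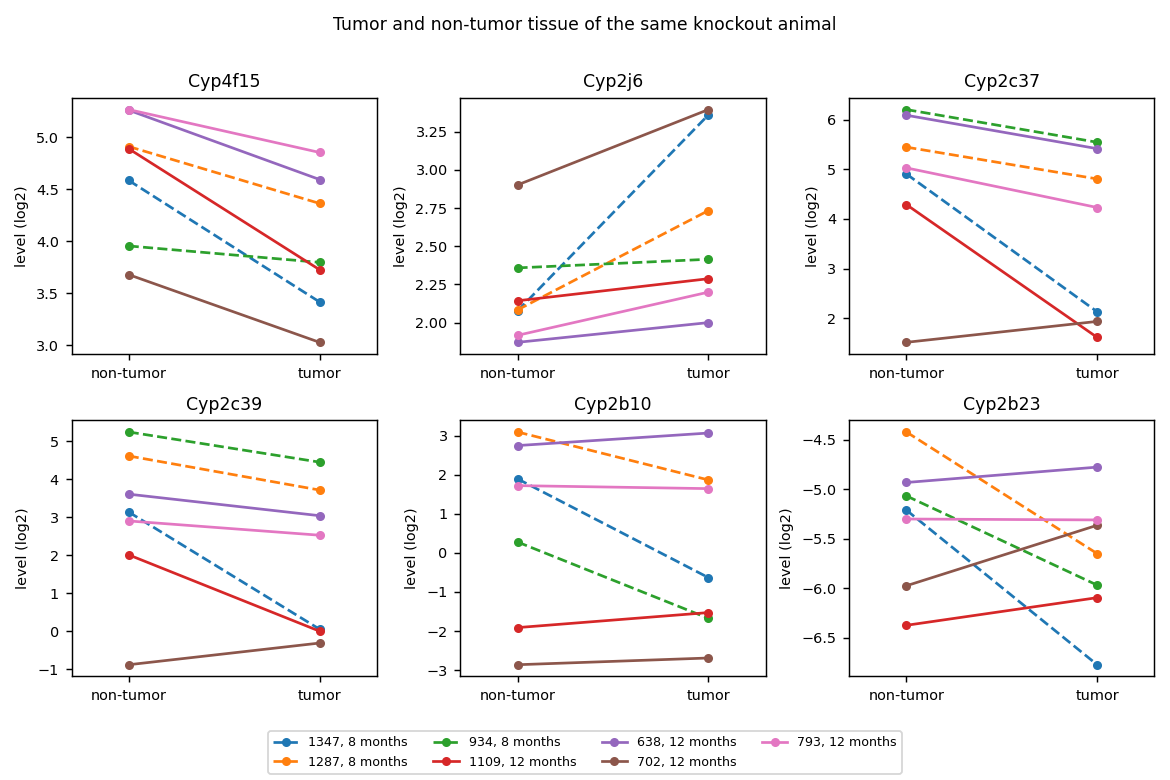
Levels (log2, relative to the array's 75th percentile) of 6 P450 genes in the non-tumor liver and the tumor of each of 7 knockout animals, joined by lines (dashed 8 months, solid 12 months). Every line of Cyp4f15 ends lower and every line of Cyp2j6 higher in the tumor, Cyp2c37 and Cyp2c39 are much lower in the tumors of 2 animals, and Cyp2b10 is lower in the tumors of the 3 animals of 8 months.

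The partners of P450 enzymes were lower or higher alongside. Por, the reductase on which microsomal P450 enzymes depend, was at 5.86, 6.81 and 7.61 in knockout, 8.62 and 8.41 in wild-type and 8.28, 8.33 and 8.91 in hemizygous livers of 2 months. The knockout livers lay below all others, with a difference from wild-type of -1.75 (SE 0.50, adjusted p = 0.329 in limma). Hmox1, which degrades haem, was at 2.30, 2.73 and 3.49, 1.16 and 1.18 and 1.08, 1.26 and 0.86, without overlap and with a difference of 1.67 (SE 0.44). Alas1, the rate-limiting enzyme of hepatic haem synthesis, was at 3.31, 5.96 and 8.58, 8.62 and 8.22 and 8.11, 7.59 and 7.58, where knockout animal 69 reached the controls and animal 137 was the lowest. Of the 16 partner genes measured, 0 were called in this comparison, beside 0.0258% of all genes, 1 was higher and 2 lower at an unadjusted p under 0.05, beside 4.49% and 4.31%, and 10 were below 0, with a median of -0.36 beside -0.01. At 12 months Alad, an enzyme of haem synthesis, differed by -1.15 (SE 0.30, adjusted p = 0.117).

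Of 30 regulators of P450 genes, 22 were below 0 in the knockout livers of 2 months compared with wild-type, with a median of -0.43 beside -0.01 over all genes, and 0 were higher and 6 lower at an unadjusted p under 0.05, beside 4.49% and 4.31%. None was called, beside 0.0258%. Tef, a clock output factor, was at 0.49, 1.69 and 2.27 in knockout, 3.83 and 3.96 in wild-type and 3.91, 3.97 and 3.84 in hemizygous livers, without overlap and with a difference of -2.42 (SE 0.63, adjusted p = 0.282 in limma). Its relative Hlf differed by -1.29, the factor Cebpb by -1.41, the interleukin-6 receptor Il6ra by -1.69 and PPAR-alpha (Ppara) by -1.41. CAR (Nr1i3), named after its values were seen, was at 1.88, 1.31 and 1.71, 3.40 and 2.76 and 3.39, 3.51 and 3.61, also without overlap, while PXR (Nr1i2) at 2.38, 2.76 and 3.02, 3.48 and 3.02 and 2.59, 3.41 and 3.22 overlapped. At 12 months 16 of 30 were below 0 with a median of -0.23, beside -0.09 over all genes, and the smallest p-values were those of Il6ra (-1.62), Ncor1 (-0.95), Ppara (-1.44) and Cebpa (-1.27).

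Other enzymes of drug metabolism, 58 measured, had a median of -0.37 against wild-type at 2 months, with 41 below 0, and -0.42 at 12 months, with 46 below 0, beside -0.01 and -0.09 over all genes.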

How the data were processed

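RNA from 25 mouse liver and tumor samples was labelled with Cy3 and hybridised to 1-colour Agilent arrays, per the labels' protocols. The deposited scanner files hold Agilent Feature Extraction 10.5.1.1 intensities per spot, per the file headers. The authors' deposited value table holds log2 values, used as an alternative; its column medians were 6.565 to 6.579, it ranked probes like the median signal (lowest Spearman correlation 0.999989), and its centring is not given in the sources used here. limma is named in the submitters' processing notes without a role. Control spots and spots marked as non-uniform or population outliers were left out, spots of a probe were averaged, and the processed intensities were taken to log2 minus each array's 75th percentile. The background-corrected alternative used the median signal, since the files used hold no mean signal. Of 41174 probes, 24375 (59.2%) were named through RefSeq accessions, giving 17016 genes, each by its brightest probe, and each unnamed probe was kept by itself.

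limma 3.58.1 in R 4.3.3 was fitted to 18 arrays without tumor tissue (6 groups, 12 residual degrees of freedom, 27099 genes and unnamed probes well above background on 2 or more arrays) and to 14 arrays of 7 animals with the animal as a block (24589, on 3 or more), two-sided, with Benjamini-Hochberg adjustment over all of them. The pairing comes from the animal numbers in the labels; the deviations of an animal's tumor and non-tumor liver correlated at 0.14 to 0.60, and in 5 of 7 animals, all but 1347 and 793, the tumor correlated best with its own non-tumor liver. Both fits were tested on simulated data. Promoter identity used Biopython 1.88.

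Members and gene lists were chosen with earlier results of these data known. Named genes are Mcl1 and Xist, members called in any fit, the brightest members of a subfamily, those of smallest p in each direction of the main comparisons, the sex-biased P450 genes, and up to 4 of smallest p from each list. Others were named after their values were seen.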

Additional observations from a re-analysis of the deposited data

Results flagged for a closer look

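In groups of 4 to 7 samples, 34 members were checked for a sample far from the others, 102 groups in all, of which 6 stood out, while chance gives about 1 in 20. Animal 1347 accounted for 3 of them: its tumor differed from its non-tumor liver by -2.22 in Cyp2c23, by -3.61 in Cyp2c38 and by -1.01 in Cyp3a25, lower than in the other 6 animals. That tumor lay on another slide and scan day than its non-tumor liver, which cannot be told apart from the animal. Animal 702 accounted for 2. Cyp2c54 was at -1.68 in its non-tumor liver, below 1.42, 1.17 and 1.18 in the other 3 of that group, and at -1.40 in its tumor. Cyp3a25 was at 5.75 in its tumor, below 6.0, 6.01 and 6.0 in the other 3 tumors of 12 months, a narrow range in which a small gap stands out. In animal 638, Cyp2d12 was at 5.99 in the non-tumor liver, above 5.20, 5.21 and 5.25 in the other 3, and its tumor was at 5.73.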

How the results depend on the processing

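Of 51 results for named genes, 48 kept their direction under all alternatives run. Those that turned were Cyp2d34 in knockout compared with wild-type at 2 months (0.15 with slide as a block), and Cyp3a44 in knockout compared with hemizygous liver (-0.46) and in knockout non-tumor liver of 12 against 8 months (0.12), both with the mean of all probes, where its dimmer probe enters. Counts of called members changed as follows. Knockout against wild-type at 2 months gave 2 with a trended, robust prior (Cyp2c55 and Cyp3a11, beside 26 called of 27099). Knockout against hemizygous, 1 as reported, gave 0 with no filter (beside 12 called of 33815) and with the mean of all probes (beside 11 of 27099). It also gave 0 with slide as a block (beside 90 of 27099) and with all 25 arrays in 1 model (beside 23 of 27223). With Xist as a covariate it gave 0, beside 19 of 27099. With only the groups compared, 0 members were called, beside 0 of 27099. The same held with Ddx3y as a covariate, a fit chosen after seeing the data. The count was 0 to 1 when an array was left out. Knockout non-tumor against wild-type at 12 months gave 3 among genes well above background on every array (beside 445 called of 16320), 2 with a trended, robust prior (beside 288 of 27099), 4 with scan day as a block (Cyp19a1, Cyp24a1, Cyp27b1 and Cyp2b23, all lower, beside 3156 called of all 27099, whose median was -0.54), and 0 to 5 when an array was left out. Wild-type liver of 12 against 2 months gave 0 to 1, the 1 being Cyp24a1 without wild-type animal 641. The cause was not tested. Without the animal block, the paired tumor comparison and its difference between ages again gave 0 called members each. Groups of 2 to 4 animals whose sex is not labelled, and slides that largely follow the groups, limit these comparisons. Cyp24a1 and Cyp19a1 were well above background on 8 and 12 of 25 arrays.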
